A study of Bos taurus with 14 samples.

Results

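Some genes are not spread smoothly between individuals but fall into 2 separate levels, with nothing in between. Here 6 such genes were followed through the endometrium, the lining of the uterus, of cows labelled high or low in fertility. They were taken from a list of 6 Ensembl cattle identifiers, out of 15524 genes in the count table, which had been picked because their level, in log2 CPM, the logarithm of the depth-scaled count rate, left a gap of 2 or more, and because only low fertility libraries lay below the gap. All 6 passed the low-count filter that kept 14929 genes for testing. The gap, the libraries below it and the difference between the fertility groups were therefore fixed by the choice and are described without a test.

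Polyadenylated RNA of 14 endometrium samples was sequenced, 7 from cows of the low fertility group (Fert-) and 7 from the high fertility group (Fert+). All came from the uterine horn on the side named ipsilateral, at day 7 of the oestrous cycle, and no control group or treatment is given. The labels state neither breed, age nor parity, nor that each sample is a separate animal, so that p-values measure only the spread between these samples. Endometrium is a mixture of luminal and glandular epithelium, stroma, vessels and leucocytes. In this week of the cycle the corpus luteum raises progesterone, under which the glands turn to the secretions that nourish an early embryo. In bulk tissue, fewer cells of a type and less RNA per cell cannot be told apart.

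The files pair no identifier with a gene name, and 0 of the 6 identifiers could be matched to a symbol. What the 6 genes encode is therefore not stated, and they are grouped by their pattern alone. The labelled tissue could not be checked against its marker genes for the same reason.

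Depth was similar throughout, but 2 low fertility libraries did differ from the rest at many genes. Libraries held 20641141 to 23641397 counts. Low fertility replicates 4 and 5 had 23159164 and 22334326 counts, inside that range. They detected 15467 and 15438 genes, fewer than any of the 12 remaining libraries, which detected 15478 to 15499. The 10 most abundant genes held 6.57% of the counts in replicate 5, less than in any other library (8.40% to 11.4%). In replicate 4 they held 9.60%. Each result below is given with the libraries it rests on, and their part in it beyond these values was not tested.

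All 6 genes were low in the same 2 libraries, low fertility replicates 4 and 5. Of the 6, 4 were low there and nowhere else: ENSBTAG00000000015, ENSBTAG00000008039, ENSBTAG00000021829 and ENSBTAG00000023941. The other 2, ENSBTAG00000002007 and ENSBTAG00000020285, were low in low fertility replicate 7 as well. The remaining 11 libraries, 4 of low and 7 of high fertility, were at the upper level for every gene. Of the 15 pairs of genes, 7 had the same low libraries and 8 differed by 1 library, replicate 7. The 6 genes thus went down together and not each in a library of its own. They were chosen for being low in low fertility libraries. The list also leaves out the 67 genes, of 78 with such a gap, that were low in 1 library alone. The shared libraries therefore describe the list.

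**Figure D1:**
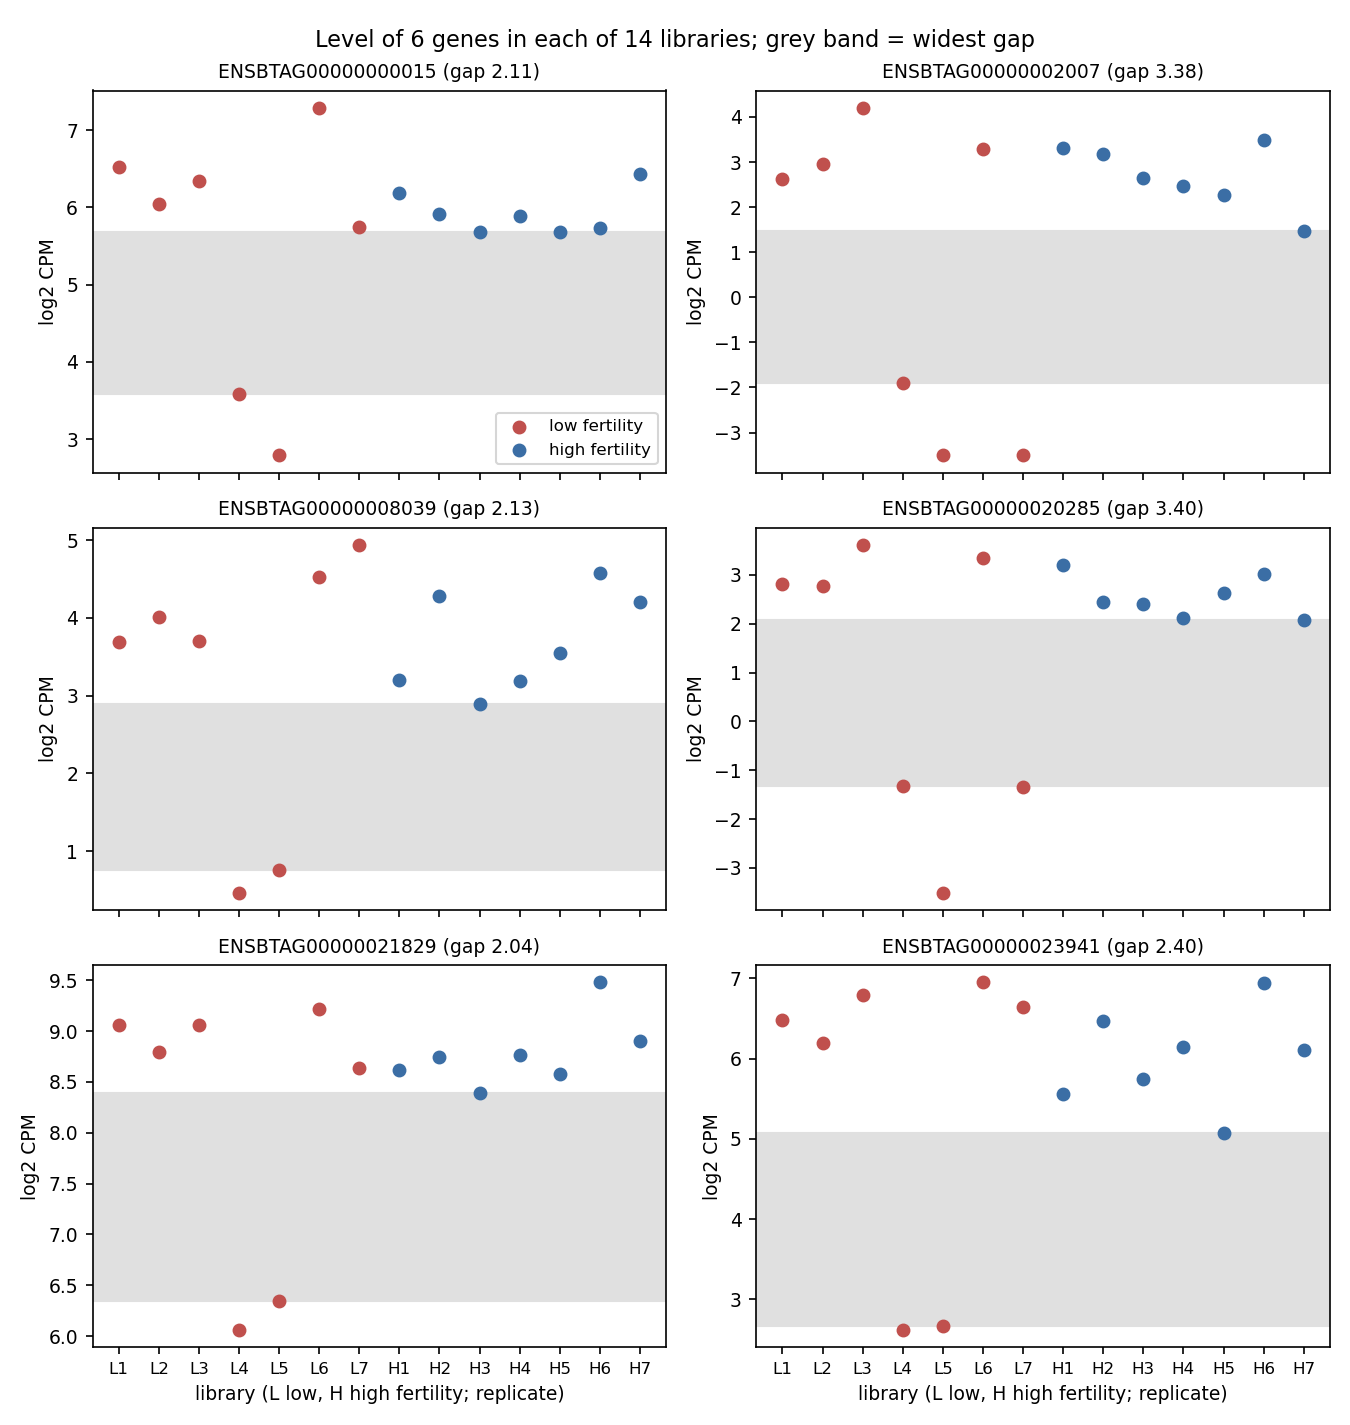
Level of each of the 6 genes (vertical axis, log2 CPM) in the 14 libraries (horizontal axis, L for low and H for high fertility, with the replicate number). Each point is 1 library and the grey band is the widest gap. L4 and L5 lie below the band in all 6 panels and L7 in 2 of them, ENSBTAG00000002007 and ENSBTAG00000020285.

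In the genes low in 2 libraries, the low level was reduced, but each low library still held at least 29 counts. ENSBTAG00000023941 was at 6.06 CPM in low fertility replicate 4 and 6.29 CPM in replicate 5, from 136 and 141 counts. The other 5 low fertility libraries ran from 73.4 to 124 CPM, and the high fertility libraries from 33.6 to 123 CPM with a median of 68.8 CPM. Nothing lay between 6.29 CPM and the 33.6 CPM of high fertility replicate 5, a gap of 2.40 on the log2 scale. The low libraries kept 8.81% and 9.13% of the high fertility median.

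ENSBTAG00000000015 was at 11.9 CPM in low fertility replicate 4 (266 counts) and 6.82 CPM in replicate 5 (153 counts). The other 5 low fertility libraries held 53.8 to 156 CPM, and high fertility libraries 51.4 to 86.3 CPM with a median of 59.0 CPM. The gap of 2.11 ran from replicate 4 up to high fertility replicate 3. What remained was 20.1% of the high fertility median in replicate 4 and 11.6% in replicate 5. Their exact Poisson 95% intervals, 235 to 300 counts and 130 to 179 counts, did not overlap, so that the 2 low libraries differed from each other by more than counting error. Such intervals cover counting error only.

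ENSBTAG00000021829 reached 66.6 CPM in low fertility replicate 4 and 81.3 CPM in replicate 5. These values rest on 1495 and 1824 counts, so the gene was plainly expressed at its low level. High fertility libraries ran from 334 to 713 CPM around a median of 430 CPM, and the other 5 low fertility libraries from 399 to 597 CPM. Its gap of 2.04 was the narrowest of the 6, with 15.5% and 18.9% of the high fertility median left. Here the order of the low libraries was the reverse of that for ENSBTAG00000000015, with replicate 4 under replicate 5, and the counting intervals of 1420 to 1573 and 1741 to 1910 counts again did not overlap.

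ENSBTAG00000008039 stood at 1.29 CPM in low fertility replicate 4 and 1.60 CPM in replicate 5, or 29 and 36 counts. The intervals of these counts, 19.4 to 41.6 and 25.2 to 49.8, overlapped. High fertility libraries ranged from 7.32 to 23.9 CPM with a median of 11.6 CPM, and the other 5 low fertility libraries from 12.8 to 30.5 CPM. The gap was 2.13, and 11.1% and 13.8% of the high fertility median remained. Low fertility replicate 7, low for 2 other genes of the list, had the highest level of this gene among all 14 libraries, 30.5 CPM, which is 262% of the high fertility median.

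The genes low in 3 libraries held at most 7 counts there. Their upper level was also the lowest of the 6, with high fertility medians of 6.13 and 5.38 CPM. ENSBTAG00000002007 had 4 counts in low fertility replicate 4, 0 in replicate 5 and 0 in replicate 7. Its other 4 low fertility libraries held 150 to 440 counts, or 6.09 to 18.3 CPM, and the high fertility libraries 2.69 to 11.1 CPM with a median of 6.13 CPM. Replicate 4, at 0.178 CPM (4 counts, interval 1.09 to 10.2), was 34.4-fold below the high fertility median. Taking 3 counts per library as the limit that a count of 0 allows (the upper end of its two-sided interval is 3.69), replicates 5 and 7 were at least 45.8-fold and at least 47.1-fold lower than that median. The gap, from replicate 4 to high fertility replicate 7, was 3.38.

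ENSBTAG00000020285 had 7 counts in low fertility replicate 4, 0 in replicate 5 and 7 in replicate 7. The 7 counts (interval 2.81 to 14.4) correspond to 0.312 CPM in replicate 4 and 0.304 CPM in replicate 7. High fertility libraries held 4.15 to 9.15 CPM with a median of 5.38 CPM, and the other 4 low fertility libraries 6.71 to 12.1 CPM. Replicates 4 and 7 were 17.2-fold and 17.7-fold below the high fertility median, and replicate 5, at 0 counts, at least 40.2-fold below it. The gap of 3.40 was the widest of the 6, and a second step of 2.15 separated replicate 5 from the other low libraries. That step lies between 0 and 7 counts and depends on the prior count of 2 that was added before taking logarithms. For all 6 genes the counting intervals on the 2 sides of the gap lay apart.

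**Figure D2:**
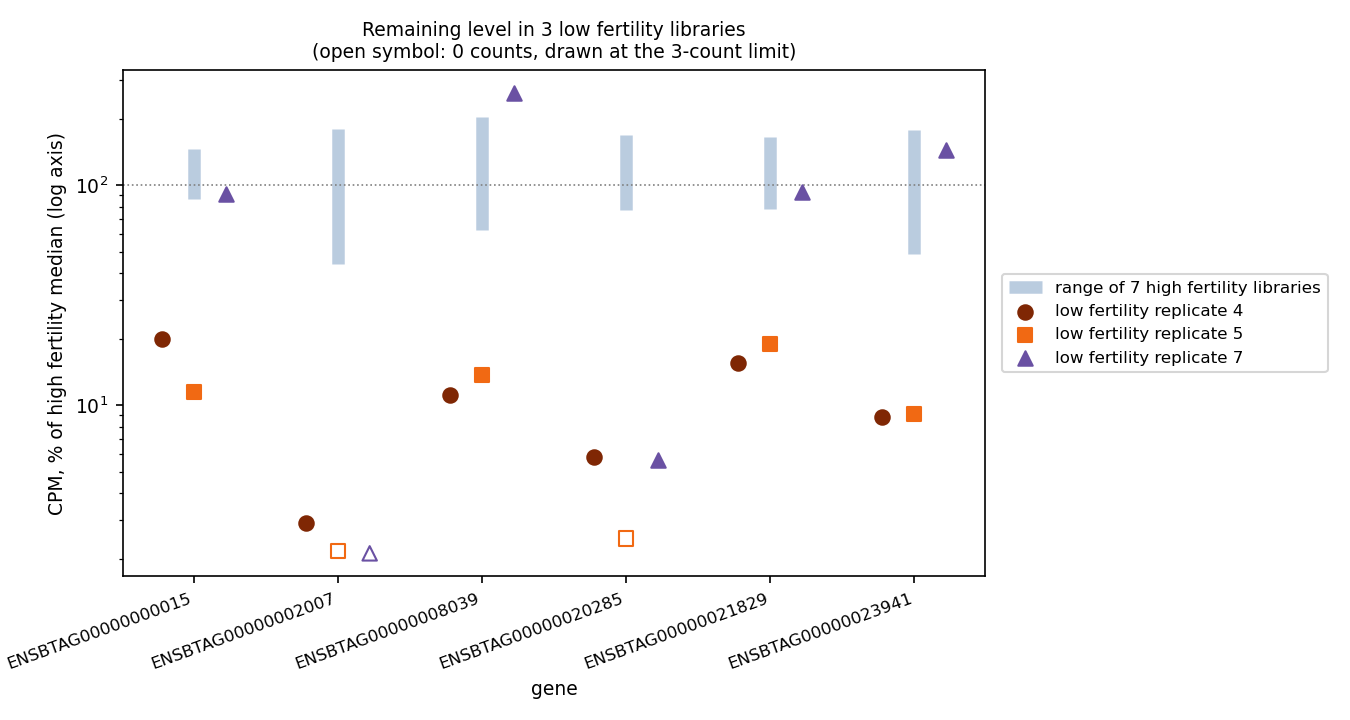
CPM in low fertility replicates 4, 5 and 7 as a percentage of the high fertility median (log axis) for each gene, with bars for the range of the 7 high fertility libraries. Open symbols are libraries with 0 counts, drawn at the limit of 3 counts. Replicates 4 and 5 keep 8.81% to 20.1% in the genes low in 2 libraries, and replicate 7 lies within or above the high fertility range there.

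Replicate 7 parted the list in a way that replicates 4 and 5 did not. It kept 0% (0 counts) of the high fertility median for ENSBTAG00000002007 and 5.64% for ENSBTAG00000020285. For the other genes it stood at 91.2% (ENSBTAG00000000015), 92.9% (ENSBTAG00000021829), 145% (ENSBTAG00000023941) and 262% (ENSBTAG00000008039). Its total of 22608614 counts and its 15492 genes detected were within the range of the libraries at the upper level.

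The comparison the study was designed for, high against low fertility, called very few genes of any kind, and the 6 were not among them. Under the edgeR quasi-likelihood fit, adjusted by Benjamini-Hochberg, 0 of the 6 passed, and 0.0335% of all tested genes did (5 of 14929). None of the 6 had an unadjusted p under 0.05, and 0 passed by DESeq2 or limma-voom. Fitted log2 changes, high minus low, ran from -0.11 (SE 0.481) for ENSBTAG00000000015 to 0.26 (SE 0.409) for ENSBTAG00000021829. Their median was 0.11, against -0.0017 over all tested genes. Because the contrast was used to pick the genes, nothing is read from these counts.

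The group means hide the pattern. ENSBTAG00000023941 averaged 72.8 ± 48.2 CPM (SD, n = 7) in low and 69.3 ± 29.7 CPM (SD, n = 7) in high fertility. The low fertility median, 89.3 CPM, was above the high fertility median of 68.8 CPM, although the 2 lowest libraries were of low fertility. ENSBTAG00000000015 likewise averaged 66.8 ± 51.1 CPM (SD, n = 7) in low and 62.1 ± 13.0 CPM (SD, n = 7) in high fertility. Its highest library, low fertility replicate 6 at 156 CPM, and its lowest, replicate 5, were of the same group. With low fertility replicates 4 and 5 left out, all 6 fitted changes were negative, from -0.54 to -0.16 with a median of -0.36 against 0.01 over all genes. Leaving out libraries that are low for these genes moves the changes this way by construction, and 0 of the 6 passed (0.0133% of 15005 tested genes did).

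The list holds only some of the genes with this pattern. Over all tested genes, 78 (0.522%) had a widest gap of 2 or more with only low fertility libraries below it. Of these, 67 were low in 1 library alone, 49 of them in replicate 5 and 13 in replicate 4. In 11 genes (0.0737%) at least 2 libraries were low, and all 11 included replicates 4 and 5: 9 were low in exactly these and 2, both on the list, in replicate 7 too. The 6 listed genes are among these 11, and the other 5 had gaps of 2.07 to 2.49. What else set the listed genes apart from those 5 is not given. Only high fertility libraries were low in 6 genes (0.0402%), of which 2 were low in at least 2 libraries. Among genes with at least 2 libraries low, ENSBTAG00000021829, with a gap of 2.04, was nearest inside the limit, followed by an unlisted gene with 2.07 and ENSBTAG00000000015 with 2.11. The nearest 3 outside it, all low in replicates 4 and 5, had gaps of 1.95.

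**Figure D3:**
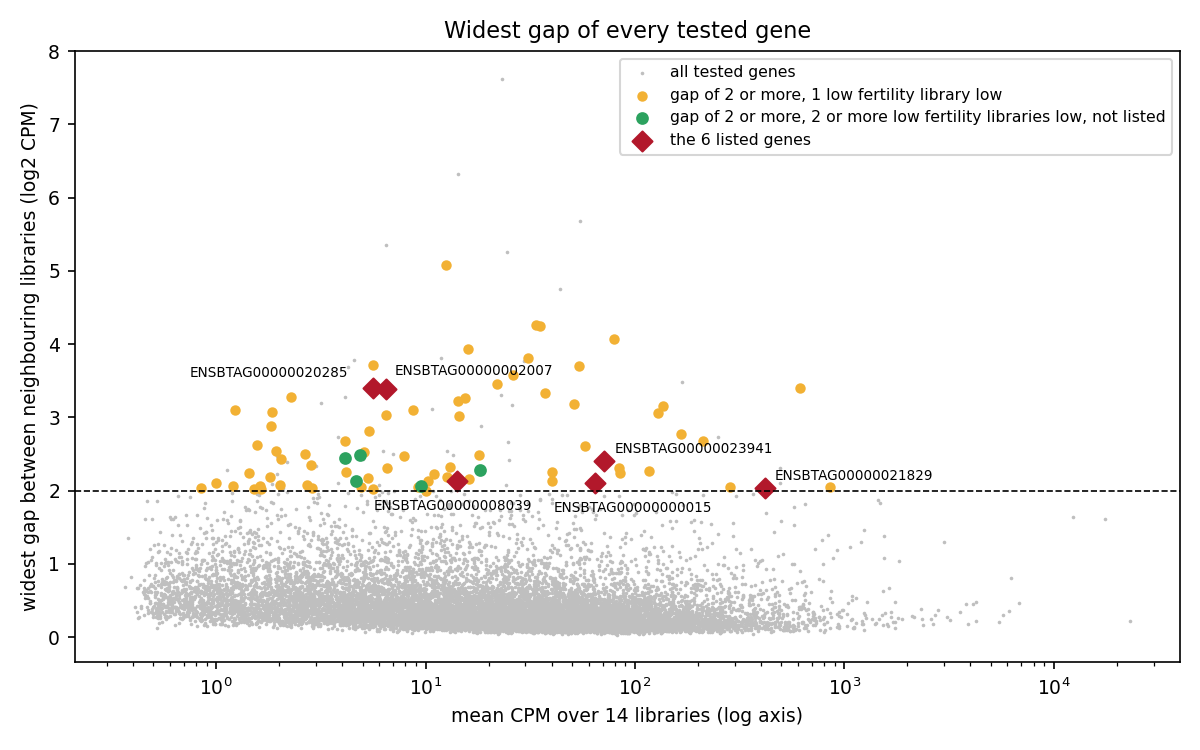
Widest gap between neighbouring libraries (vertical axis, log2 CPM) against mean CPM over the 14 libraries (log axis) for all 14929 tested genes. Diamonds are the 6 listed genes, green points the 5 others with at least 2 low fertility libraries low, and yellow points the 67 genes with 1 such library low, all above the dashed line at 2.

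Replicates 4 and 5 were the bottom 2 libraries for many genes, mostly by a small distance. Of 14929 tested genes, they lay below all 12 others for 865 (5.79%) and above all others for 533. No other pair of libraries was counted in this way, so whether 865 is unusual for a pair was not tested. The distance was at least 1 on the log2 scale for 64 genes below (0.429%), the 4 listed genes low in exactly these libraries among them, and for 4 genes above. Outside the list, the largest distance between these 2 libraries and the rest was that of ENSBTAG00000048078. It was at 0.178 CPM (4 counts) and 0.0892 CPM (2 counts) in replicates 4 and 5 and at 1.41 to 14.4 CPM in the other 12, a distance of 2.49. Its highest library was low fertility replicate 7, at 14.4 CPM.

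The 3-library pattern was rarer. Replicates 4, 5 and 7 lay below all 11 others for 144 tested genes (0.965%), by at least 1 for 5 genes (0.0335%), and by at least 2 for ENSBTAG00000002007 and ENSBTAG00000020285 alone. After them the largest distance, 1.68, was that of ENSBTAG00000011706. It held 0.624, 1.38 and 1.04 CPM in replicates 4, 5 and 7 and 4.63 to 12.9 CPM elsewhere. No gene had these 3 libraries above all others by 0.5 or more.

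**Figure D4:**
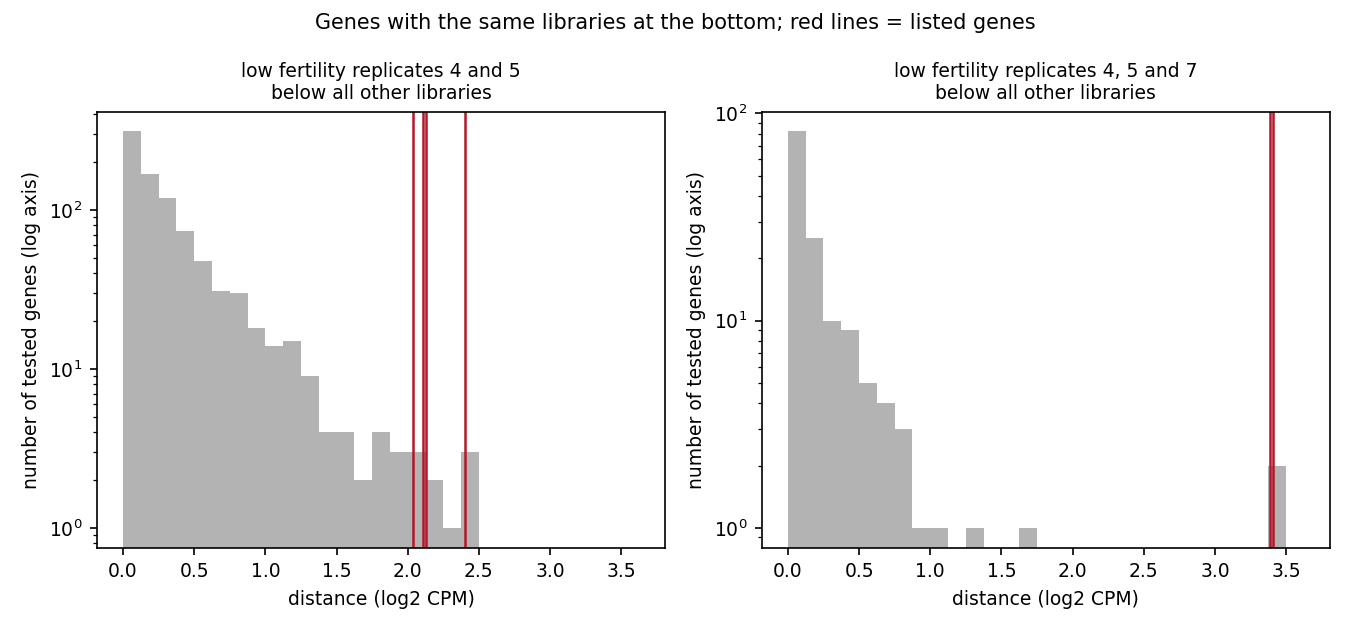
Number of tested genes (log axis) by the distance, in log2 CPM, at which low fertility replicates 4 and 5 (left) or 4, 5 and 7 (right) lie below all other libraries. Red lines mark the listed genes: 4 at 2.04 to 2.40 on the left, within the tail of other genes, and 2 at 3.38 and 3.40 on the right, beyond the 1.68 of the next gene.

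The rule used the level of each gene in every library. As stated, it did not compare the genes with one another. Their correlation among the high fertility libraries was tested, on values that the rule had also used. Among the 7 high fertility libraries, 0 of the 15 pairs passed after Benjamini-Hochberg adjustment, and 3 had an unadjusted p under 0.05 (exact two-sided permutation tests over 5040 orders). The highest Pearson r was 0.80 for ENSBTAG00000008039 with ENSBTAG00000021829 (exact permutation p = 0.0107, adjusted 0.161; Spearman rho 0.68, exact permutation p = 0.110; r 0.79 without the 2 farthest libraries). Here and below, the 2 farthest libraries are those farthest from the median of the first-named gene of a pair, so the second gene has no part in choosing them. ENSBTAG00000021829 with ENSBTAG00000023941 gave r = 0.79 (exact permutation p = 0.0363, adjusted 0.248; rho 0.75, exact permutation p = 0.0663; 0.75 without the 2 farthest). ENSBTAG00000002007 with ENSBTAG00000020285 gave r = 0.76 (exact permutation p = 0.0496, adjusted 0.248; rho 0.75, exact permutation p = 0.0663; 0.58 without the 2 farthest).

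Over the 11 libraries in which all 6 genes were at the upper level, a set chosen after the data were seen, the same 3 pairs passed (two-sided permutation tests with 100000 resamples, adjusted over 15 pairs). That set was defined by the levels the rule used. It pools low and high fertility libraries, which the permutations did not keep apart. The p-values over it therefore cannot separate movement of the genes within a group from a shared difference between the groups. ENSBTAG00000021829 and ENSBTAG00000023941 had r = 0.84 (n = 11, permutation p = 0.0013, adjusted 0.00975) and rho = 0.88 (permutation p = 0.00069, adjusted 0.0103). Without the 2 farthest libraries r was 0.77 (exact permutation p = 0.0160). ENSBTAG00000002007 and ENSBTAG00000020285, which share 3 low libraries, had r = 0.84 (n = 11, permutation p = 0.00121, adjusted 0.00975) and rho = 0.82 (permutation p = 0.00343, adjusted 0.0257). Their r fell to 0.67 without the 2 farthest libraries (exact permutation p = 0.0511), which missed the threshold with 9 libraries. Of all other tested genes, 0.0335% had a larger r with ENSBTAG00000002007 than ENSBTAG00000020285 did. In the other direction, 0.288% had a larger r with ENSBTAG00000020285 than ENSBTAG00000002007 did. Among the high fertility libraries alone these shares were 0.824% and 1.61%.

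The third pair, ENSBTAG00000008039 and ENSBTAG00000021829, had r = 0.76 (n = 11, permutation p = 0.00642, adjusted 0.0321) and rho = 0.74 (permutation p = 0.0129, adjusted 0.0644). Without the 2 farthest libraries its r of 0.54 did not pass (exact permutation p = 0.135). ENSBTAG00000000015 passed with none of the other 5, its highest r being 0.49 with ENSBTAG00000023941 (n = 11, permutation p = 0.122, adjusted 0.297; rho 0.48, permutation p = 0.137). No pair made of a gene low in 2 libraries and a gene low in 3 passed, the highest r among them being 0.52 for ENSBTAG00000002007 with ENSBTAG00000023941 (n = 11, permutation p = 0.101, adjusted 0.297; rho 0.56, permutation p = 0.0768). The difference between such pairs and the pairs that passed was not tested.

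**Figure D5:**
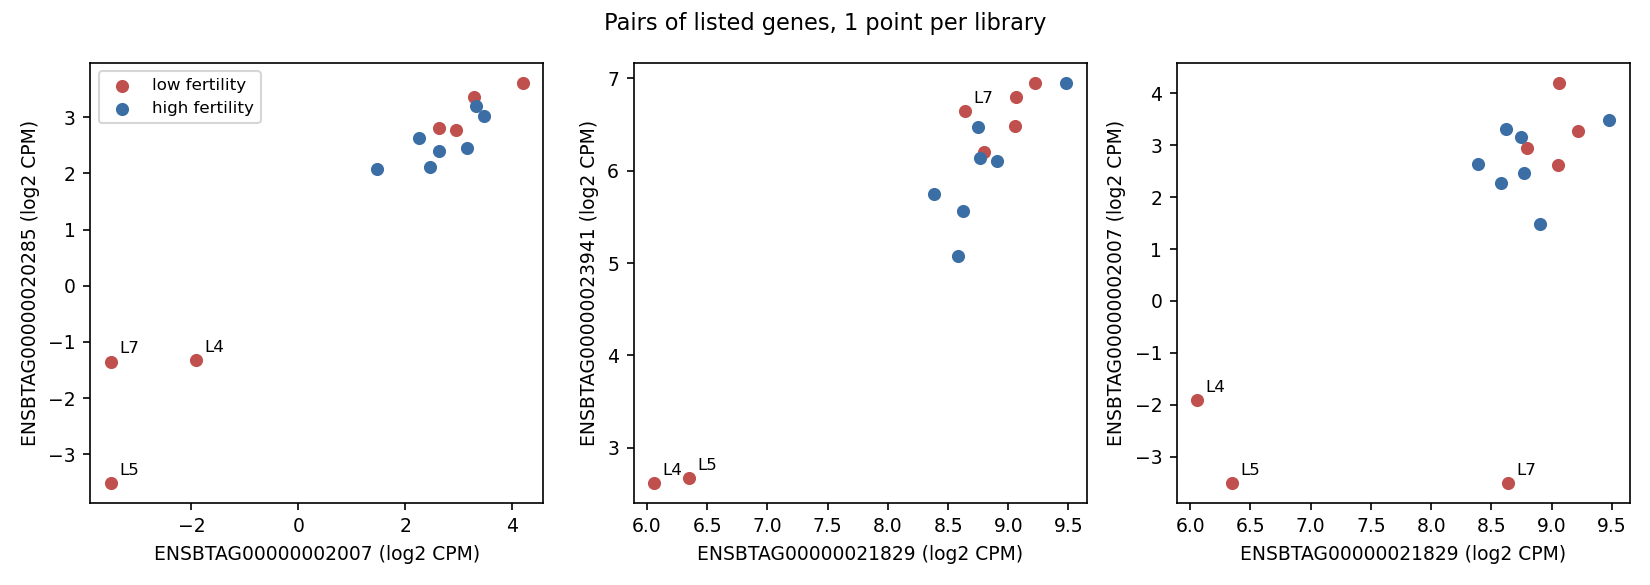
Log2 CPM of 3 pairs of listed genes, 1 point per library, with low fertility replicates 4, 5 and 7 marked. In the left panel L4, L5 and L7 lie low on both axes; in the middle panel only L4 and L5 do; in the right panel L7 is low for ENSBTAG00000002007 and at the upper level for ENSBTAG00000021829.

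At the upper level the genes differed in how much they varied. Over the 7 high fertility libraries the SD of log2 CPM was 0.28 for ENSBTAG00000000015, close to the median of 0.28 for the 8124 genes between 10 and 100 CPM. In the same band ENSBTAG00000008039 had 0.65 and ENSBTAG00000023941 had 0.61, and 5.05% and 6.01% of genes in the band had a larger SD. ENSBTAG00000021829 had 0.35 against 0.25 for the 2148 genes over 100 CPM. ENSBTAG00000002007 had 0.70 and ENSBTAG00000020285 had 0.43, against 0.44 for the 3987 genes between 1 and 10 CPM. The upper level was thus itself wide for some of these genes: among the libraries above the gap the highest was 6.80 times the lowest for ENSBTAG00000002007 and 2.13 times for ENSBTAG00000021829.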

How the data were processed

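Raw gene-level counts were deposited by the authors for each sample and as 1 table, and 0 cells differed between them. Per the submitters' processing notes, the build was UMD3.1 and the tools, with no role given, included STAR, HTSeq 0.3p7, CASAVA 1.4 and edgeR. The labels state no settings, annotation or strand, so reads of overlapping, antisense or near-identical genes may be split or lost.

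Counts were filtered with filterByExpr, scaled by TMM (trimmed mean of M values) and tested with robust quasi-likelihood fits in edgeR 4.0.16 (R 4.3.3) over all 14 libraries, without covariates, at a Benjamini-Hochberg adjusted p of 0.05. Log2 CPM used a prior count of 2. The widest distance between neighbouring libraries is the gap, and libraries under it are low. Standard errors come from the log2 change and its F statistic. DESeq2 1.42.0 and limma 3.58.1 (voom with library quality weights) were alternatives. The fit and the gap search were tried on simulated data. The drops simulated for the gap search were larger than the gaps of the listed genes, so it was not tried at their size. Figures used matplotlib 3.10.9.

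The members and lists were chosen with earlier results of these data known. Beside the 6 genes, the rule for named genes took those with the same libraries lowest or highest and the largest distance. At most 2 lower and 2 higher ones are printed, since no identifier has a symbol: the reference table (ARS-UCD2.0) holds 37063 genes and 0 Ensembl identifiers. Lists of marker genes by symbol were therefore not run. Replicate numbers only name samples, in the order listed.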

Additional observations from a re-analysis of the deposited data

How the results depend on the processing

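All 6 listed genes kept 2 levels, only low fertility libraries low, with median-of-ratios factors or a prior count of 0.5 or 5. Without a composition factor 5 of 6 did, as the gap of ENSBTAG00000021829 fell to 1.997. All 6 did with a gap of 1.5 or without any 1 library (6 to 6). Gaps over 2 and at least 2 low libraries per gene all but ensured this. Without low fertility replicate 4 or 5, 4 genes had 1 low library. A prior count of 0.5 put the widest gap of ENSBTAG00000020285, 3.89, above low fertility replicate 5 (0 counts) alone. A gap of 3 or more left 2 of the 6. Removing low fertility replicates 4 and 5 at once also left 2, and 0 were left without replicates 4, 5 and 7.

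Among all tested genes, the count with only low fertility libraries low, 78, was 131 with a prior count of 0.5, 50 with 5, 214 with a gap of 1.5, 25 with a gap of 3, 10 without replicates 4 and 5, 5 without replicates 4, 5 and 7, and 44 to 101 without 1 library, lowest without replicate 5. With at least 2 libraries low it was 11, and 27 with a gap of 1.5, 2 with a gap of 3, 0 without replicates 4 and 5 or 4, 5 and 7, and 2 to 16 without 1 library, with 2 without replicate 4 and 3 without replicate 5. With only high fertility libraries low it was 6, and 16 with a prior count of 0.5, 18 with a gap of 1.5, 12 without replicates 4 and 5, 13 without replicates 4, 5 and 7, and 5 to 10 without 1 library, with 10 without low fertility replicate 4.

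The 5 genes past the threshold for fertility, none of them listed, became 3 without a composition factor, 19 by DESeq2, 8 by limma-voom, 2 without replicates 4 and 5, and 0 to 5 without 1 library. In the edgeR quasi-likelihood fit the count was 0 when the library left out was replicate 2 or 4 of low fertility or replicate 2, 3, 4 or 6 of high fertility, with 748 to 1231 genes at an unadjusted p under 0.05. It was 1 when replicate 7 of high fertility was missing, and 3 when replicate 1, 3 or 7 of low fertility or replicate 1 or 5 of high fertility was. The cause was not tested. Correlated pairs among the listed genes numbered 0 among high fertility libraries under each scaling and prior count, and 3 over the 11 libraries, which pool both fertility groups. No paired analysis was possible because the labels number no samples across the groups. At 20641141 counts or more per library, 0 counts allow up to 3, so whether a gene at 0 is silent or very low was not detectable at this depth. The counts with at least 2 libraries low and the correlations were chosen after seeing the data, and so was leaving out several libraries together, other than replicates 4 and 5 in the fertility comparison.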

Other observations

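A few genes had the opposite pattern, with low fertility replicates 4 and 5 above all other libraries. ENSBTAG00000001392 was at 50.6 CPM (1135 counts) in replicate 4 and 283 CPM (6344 counts) in replicate 5, and at 0.705 to 5.51 CPM in the other 12, a distance of 3.18 on the log2 scale. ENSBTAG00000008240 was at 7.53 CPM and 6.06 CPM in these libraries and at 0.325 to 1.60 CPM in the other 12, a distance of 1.86. Of all tested genes, 17 had this opposite pattern with a distance of 0.5 or more, against 191 with replicates 4 and 5 below the rest by as much. No explanation was tested.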
